A study of Mus musculus with 3 samples.

Results

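Cyclins, cyclin-dependent kinases (CDKs), kinesins and genes of mitosis were described in group 2 innate lymphoid cells (ILC2s) from mouse lung. The genes were chosen by symbol alone. The rule took numbered cyclins of the A, B, D, E and F series and numbered Cdk, Cdc, Kif and Plk genes. It added Cdkn, Cenp, Aurk, Bub and Mad2l genes with Nuf2, Ndc80, Birc5, Mki67 and Top2a, leaving out Kif3a and the Cdc42 genes. This rule found 139 of 16129 listed genes, all of them protein coding and spread over 20 chromosomes in RefSeq. The rule uses symbols and no level, and it was written with earlier results of these data known. The study holds 3 libraries of 1 group: ILC2s isolated by flow sorting from lungs of wild type mice after treatment with the cytokine IL-33 in vivo. There was no untreated group and no other cell type, so no response to IL-33 can be read from these values. The sources used here give no strain, age or sorting gate. They do not say that each library is its own animal, so any SD measures only the spread between these samples, which may be technical. No p-value given here speaks for more than these 3 samples. Ccna1, Ccnb3, Cenpr and Plk5 are not among the listed genes and were not analysed here.

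A cell enters the cycle when D cyclins with Cdk4 or Cdk6, and then E cyclins with Cdk2, phosphorylate the retinoblastoma family and free E2F factors to drive genes of DNA replication. Cyclin A and cyclin B with Cdk1 then carry the cell through S phase and into mitosis, where Aurora and Polo-like kinases, centromere proteins and mitotic kinesins build the spindle, and the anaphase-promoting complex ends mitosis by marking cyclin B and securin for destruction. IL-33 is an alarmin released by damaged epithelium, and ILC2s carry its receptor, answer it with the type 2 cytokines IL-5 and IL-13, and can divide in the lung under it. Many members of these families by name have other work: many kinesins carry cargo, also in cells that do not divide, several CDKs act on RNA polymerase II, and some Cdc genes are splicing factors or chaperones.

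Levels are given in TPM, a gene's share of the library's transcripts after division by transcript length, so that genes can be compared with each other within a library. Each library held 19883728 to 19976129 estimated reads, of which 163092, 164634 and 163701 fell on the 139 genes. All 12 ILC2 markers checked, such as Gata3, Il1rl1 and Il5, were detected, and their summed level was 7324 to 7424 TPM. Markers of macrophages were also present, with 9 of the 10 listed detected and sums of 402, 394 and 551 TPM in replicates 1, 2 and 3. Chil3 alone made up 338, 327 and 461 TPM of these sums. Of the T cell list 2 of 6 were detected (sums of 8.41 to 12.8 TPM), of the epithelial list 4 of 6 (51.6 to 57.4 TPM) and of the neutrophil list 1 of 3 (1.89 to 3.53 TPM). None of 4 B cell genes and none of 5 endothelial and fibroblast genes reached 1 TPM in each library, with sums of 1.78 to 2.63 TPM and 0.39 to 0.57 TPM, and no listed marker of these cell types stood at 0 in all libraries. For the macrophage sum the ratio of replicate 3 to the mean of replicates 1 and 2 was 1.39, while the median of that ratio was 1.01 over the 139 genes and 1.01 over all listed genes. How much of any level came from other cells was not tested. In these bulk samples few cells with much RNA of a gene and many cells with little cannot be told apart.

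Most of the genes were expressed. Detection meant that no library fell under 1 TPM, which held for 120 of the 139 members, or 86.3%, beside 67.3% of all listed genes. A mean of 10 TPM or more was reached by 106 members (76.3%), beside 51.2% of all listed genes. At 100 TPM or more the share was 9.35% (13 members), beside 10.3%, near the background. Below 1 TPM in all libraries were 17 members (12.2%), beside 30.0% of listed genes. The remaining 2, Kif5a and Cdkn2b, crossed 1 TPM in some libraries only. The median member stood at 24.3 TPM and the median listed gene at 11.2 TPM. On the log2(TPM + 1) scale these medians were 4.66 and 3.61. The highest member was Cdc37, rank 363 among all listed genes, at 368, 332 and 372 TPM. Cdc37 is a cochaperone that hands kinases to Hsp90 and is named for a yeast cell cycle mutant.

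The D cyclins, which open the cycle, were present as Ccnd2 and Ccnd3 and nearly without Ccnd1. Ccnd2 stood at 131, 144 and 146 TPM in replicates 1, 2 and 3, and Ccnd3 at 119, 117 and 123 TPM. Ccnd2 was the higher of the pair in each library, by 0.23 ± 0.080 on the log2(TPM + 1) scale (SD, n = 3) or 1.17-fold, but the size moved with the length used, to 1.84 on coding length. Ccnd1 was listed at 0.46, 0.45 and 0.44 TPM, on 16.8, 16.0 and 15.6 reads. With 3 libraries an exact two-sided permutation test that flips signs cannot go below p = 0.25, and each of the 8 within-library contrasts given here had that p, before and after Benjamini-Hochberg adjustment over the 8. The contrasts are therefore given as sizes with their spread.

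The listed later cyclins were all present. The E cyclins, partners of Cdk2 at the start of DNA replication, were the lowest: Ccne1 stood at 12.6, 13.4 and 15.1 TPM and Ccne2 at 14.9, 16.8 and 16.0 TPM. Ccne1 was below Ccne2 in each library, with a difference of -0.20 ± 0.116 log2 units (SD, n = 3), -0.69 on coding length and -0.12 on the longest GENCODE transcript, while the ranges of the genes over the libraries overlapped. Ccne2 shares 5622 bases of its RefSeq span with Ints8, a gene at a mean of 42.3 TPM, and the sources used here do not say whether reads were counted by strand. Ccna2, the cyclin of S phase and early mitosis, stood at 72.6, 76.0 and 75.5 TPM. Of the B cyclins, which with Cdk1 drive mitosis, Ccnb2 stood at 74.4, 78.0 and 77.8 TPM and Ccnb1 at 44.0, 43.5 and 40.9 TPM. Ccnb2 exceeded Ccnb1 by 0.83 ± 0.083 log2 units (SD, n = 3), or 1.77-fold, with no overlap between libraries, and by 0.34 on coding length and 0.90 on the longest GENCODE transcript. Of the 50-base words in Ccnb1 transcripts 23.4% also occur in other GENCODE genes, mainly its pseudogene Ccnb1-ps, and 0% in another listed gene. How far this moves the Ccnb1 level was not tested.

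Among the CDKs of the cell cycle Cdk4, a partner of the D cyclins, had the highest level. It stood at 215, 208 and 217 TPM, beside 27.8, 32.1 and 32.7 TPM for Cdk6, its paralog. The difference was 2.75 ± 0.133 log2 units (SD, n = 3), or 6.74-fold. This order rests on transcript length. Cdk6 drew more reads than Cdk4, a mean of 3403 against 2789, but the length behind its TPM, worked out from the deposited reads and FPKM values, was 11567 bases against 1370 for Cdk4. Per kilobase of coding sequence, a scale that overstates genes with long noncoding ends, Cdk4 was at 154 ± 3.13 and Cdk6 at 175 ± 13.9 CPM (reads scaled to equal library totals, SD, n = 3), and the difference turned to -0.18 log2 units. On the longest GENCODE transcript it was 2.13.

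Cdk2, the kinase of S phase, stood at 52.0, 53.3 and 54.8 TPM and Cdk1, the kinase of mitosis, at 18.8, 19.7 and 18.9 TPM. Cdk1 was below Cdk2 in each library with no overlap, and the difference Cdk1 minus Cdk2 was -1.43 ± 0.049 log2 units (SD, n = 3). Length bears on this pair too, with 4301 bases behind Cdk1 and 2292 behind Cdk2 and differences of -0.34 on coding length and -0.92 on the longest transcript. Cdk2 and Pmel, the latter at 1.35 TPM, overlap by 7114 bases in RefSeq. Cdk7, which activates other CDKs and also phosphorylates RNA polymerase II, stood at 8.22, 8.49 and 8.13 TPM. The length behind the Cdk7 value was 7558 bases, beyond its longest GENCODE transcript of 1988 bases. The 6 CDKs of transcription were all detected, with a median of 55.7 TPM. Cdk9, the kinase of the elongation factor P-TEFb, was the highest of them at 83.8, 87.7 and 85.0 TPM. Cdk11b followed at 61.5, 62.0 and 63.2 TPM and Cdk19, of the Mediator kinase module, at 58.4, 61.9 and 62.3 TPM. Cdk8, Cdk13 and Cdk12 had means of 50.6, 46.4 and 32.6 TPM.

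Of 15 other CDKs and CDK partner genes 11 were detected. Cdk2ap2 had 188, 188 and 186 TPM, Cdk2ap1 136, 134 and 129 TPM, and Cdk17 123, 126 and 127 TPM. Cdk2ap1 shares 56.1% of its 50-base words with other GENCODE genes. The RefSeq spans of Cdk17 and Elk3, the latter at a mean of 123 TPM, overlap by 3680 bases. Cdk5, known for its work in neurons, had a mean of 40.4 TPM, but its RefSeq span overlaps that of Asic3, listed at 267 TPM. Its activators were low, with Cdk5r1 at 1.53 TPM and Cdk5r2 below 1 TPM in all libraries. Cdk14, Cdk15 and Cdk18 were also below 1 TPM in all libraries. Cdk5rap3, Cdk16, Cdk10, Cdk5rap1 and Cdk5rap2 ran from 35.8 down to 10.5 TPM, and Cdk20 stood at 2.27 TPM.

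The CDK inhibitors were expressed beside the cyclins and kinases. Of the CIP/KIP family, which binds cyclin and CDK together, Cdkn1b (p27) stood at 129.8, 129.6 and 122 TPM and Cdkn1a (p21), a target of p53, at 55.7, 54.1 and 52.6 TPM. Cdkn1b was higher by 1.22 ± 0.027 log2 units (SD, n = 3), or 2.32-fold, and by 0.42 on the longest GENCODE transcript. Cdkn1c (p57) was listed at 0.28, 0.17 and 0.23 TPM. Of the INK4 family, which blocks Cdk4 and Cdk6, Cdkn2d stood at 76.1, 76.1 and 80.6 TPM and Cdkn2c at 50.9, 51.0 and 52.1 TPM. The 2 neighbours of chromosome 4 in this family were low, with Cdkn2a at 2.24, 4.36 and 2.99 TPM and Cdkn2b at 0.15, 1.09 and 0.70 TPM. Their RefSeq spans (GRCm38.p6) are chr4:89274473-89294619 for Cdkn2a and chr4:89306289-89311032 for Cdkn2b, 11669 bases apart. Cdkn2b rested on 2, 14 and 8.91 reads. Of the genes with a Cdkn symbol outside both families, Cdkn2aipnl had 135, 137 and 139 TPM, Cdkn3, a phosphatase of CDKs, 23.0, 28.4 and 22.5 TPM, and Cdkn2aip, which binds the Cdkn2a product Arf, 24.1, 23.8 and 24.9 TPM.

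**Figure D1:**
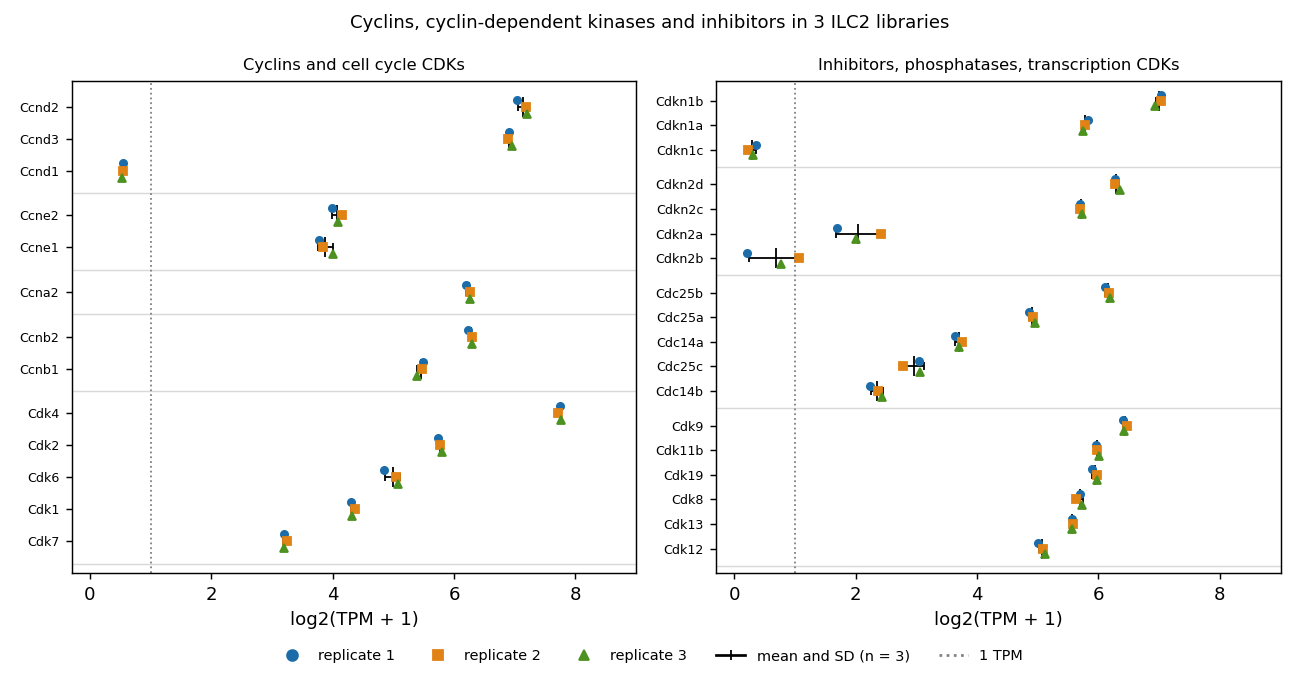
Levels as log2(TPM + 1) of cyclins and cell cycle CDKs (left) and of inhibitors, phosphatases and transcription CDKs (right), with 1 point per library, the mean and SD as a bar and a dotted line at 1 TPM. Cdk4 sits highest, Ccnd2 and Ccnd3 lie close together, and Ccnd1 and Cdkn1c lie below 1 TPM.

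The phosphatases that release CDKs from inhibition were led by Cdc25b, at 67.6, 71.1 and 71.8 TPM. Cdc25a stood at 27.9, 29.2 and 30.1 TPM and Cdc14a, which removes phosphates placed by CDKs, at 11.4, 12.5 and 12.0 TPM. Cdc25c, which acts at the entry into mitosis, was lower at a mean of 6.83 TPM, and Cdc14b had 4.09 TPM. Of the genes that license or fire replication origins, Cdc45, a part of the replicative helicase, had 34.5, 34.9 and 36.3 TPM. The loading factor Cdc6 had 16.9, 18.7 and 18.4 TPM and the kinase Cdc7 15.9, 16.2 and 16.6 TPM.

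Top2a and Mki67, the usual markers of dividing cells, were both above 100 TPM in each library. Top2a, which untangles DNA before chromosomes part, stood at 199.6, 206 and 203 TPM. Mki67, which coats mitotic chromosomes, stood at 107, 110.0 and 106 TPM. The Aurora kinases were less abundant: Aurkb, the kinase of the chromosomal passenger complex, had 38.1, 41.9 and 41.8 TPM and Aurka, the kinase of the spindle poles, 33.9, 33.8 and 35.6 TPM. Aurkb was above Aurka in each library by 0.23 ± 0.069 log2 units (SD, n = 3), and by 0.54 on coding length and 0.24 on the longest GENCODE transcript. Birc5 (survivin), which anchors Aurkb at the centromere, had 94.2, 96.3 and 98.2 TPM. Aurkaip1, at 75.6, 76.7 and 74.2 TPM, was named for binding Aurora A and is a protein of the mitochondrial ribosome. Aurkc, the Aurora kinase of germ cells, drew 1 read over the 3 libraries.

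Of the Polo-like kinases Plk3, a kinase of stress responses, had the highest level at 167, 144 and 149.8 TPM. Plk1, the mitotic member, had 36.5, 40.3 and 40.5 TPM and Plk4, which starts the copying of centrioles, 30.3, 30.3 and 29.5 TPM. Plk2 was below 1 TPM at 0.75, 0.73 and 0.69. The spindle checkpoint holds a cell in mitosis until each chromosome is attached. All 6 genes with a Bub or Mad2l symbol were detected. Bub3 stood at 88.1, 91.2 and 93.0 TPM, Mad2l1 at 69.0, 73.4 and 74.0 TPM and Bub1b at 44.4, 46.0 and 48.4 TPM. The checkpoint kinase Bub1 had a mean of 17.1 TPM. Mad2l2, which acts mainly in DNA repair, and Mad2l1bp, which silences the checkpoint, had means of 24.1 and 23.7 TPM.

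The Cdc genes of the anaphase-promoting complex had means from 23.6 to 60.2 TPM. The highest was its activator Cdc20, the target of the checkpoint, at 56.2, 60.4 and 64.1 TPM, followed by the subunits Cdc16 at 46.7, 44.2 and 47.7 TPM and Cdc23 at 36.7, 37.0 and 37.7 TPM. Cdc23 overlaps Kif20a by 4930 bases, so part of their reads may not be told apart. The subunits Cdc27 and Cdc26 had means of 32.8 and 23.6 TPM. Some other Cdc genes with work outside the cell cycle were higher. Cdc123, a factor for assembly of translation initiation complexes, had 86.0, 80.4 and 83.7 TPM and Cdc5l, a splicing factor, 78.1, 74.8 and 78.9 TPM. Cdc37, given above, led the other Cdc genes, and Cdc34, a ubiquitin-conjugating enzyme, had 63.4 TPM. Cdc37l1, Cdc40, a splicing factor, and Cdc73, of the Paf1 complex of transcription, had 48.5, 40.4 and 34.6 TPM. Cdc37l1 and Ak3, the latter at a mean of 65.2 TPM, overlap by 31612 bases in RefSeq. Cdc5l shares 34.8% of its 50-base words with other GENCODE genes, and Cdc20 and Cdc34 each share 10.4%. Of the other Cdc genes only Cdc20b was below 1 TPM in all libraries.

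A set of 17 Cenp genes, 16 of the constitutive centromere, the protein platform on which the kinetochore is built, and Cenpv, which is not a subunit of it, were all detected, with a median of 16.3 TPM. Cenpa, the histone H3 variant that marks the centromere, stood far above the rest at 124, 126 and 129 TPM. The length behind the Cenpa level was 884 bases, against 3806 for its longest GENCODE transcript. Cenpx, a histone-fold partner of Cenps, had 56.3, 63.6 and 53.7 TPM and Cenpc1, which links Cenpa to the outer kinetochore, 34.6, 34.6 and 34.1 TPM. The other 13 between these and the lowest ran from Cenpk at 9.62 TPM to Cenpm at 23.9 TPM. The lowest was Cenpu at a mean of 5.72 TPM. Nuf2 and Ndc80, subunits of the complex that grips microtubules, were near each other at 30.7, 30.5 and 27.9 TPM and at 26.9, 26.5 and 28.5 TPM. Cenpb, a binder of satellite DNA, had 88.3, 87.3 and 87.0 TPM, while the kinesin Cenpe had 16.1, 17.1 and 15.6 TPM and Cenpf 13.7, 13.6 and 13.4 TPM. Cenpj, a protein of the centriole, had a mean of 6.83 TPM.

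**Figure D2:**
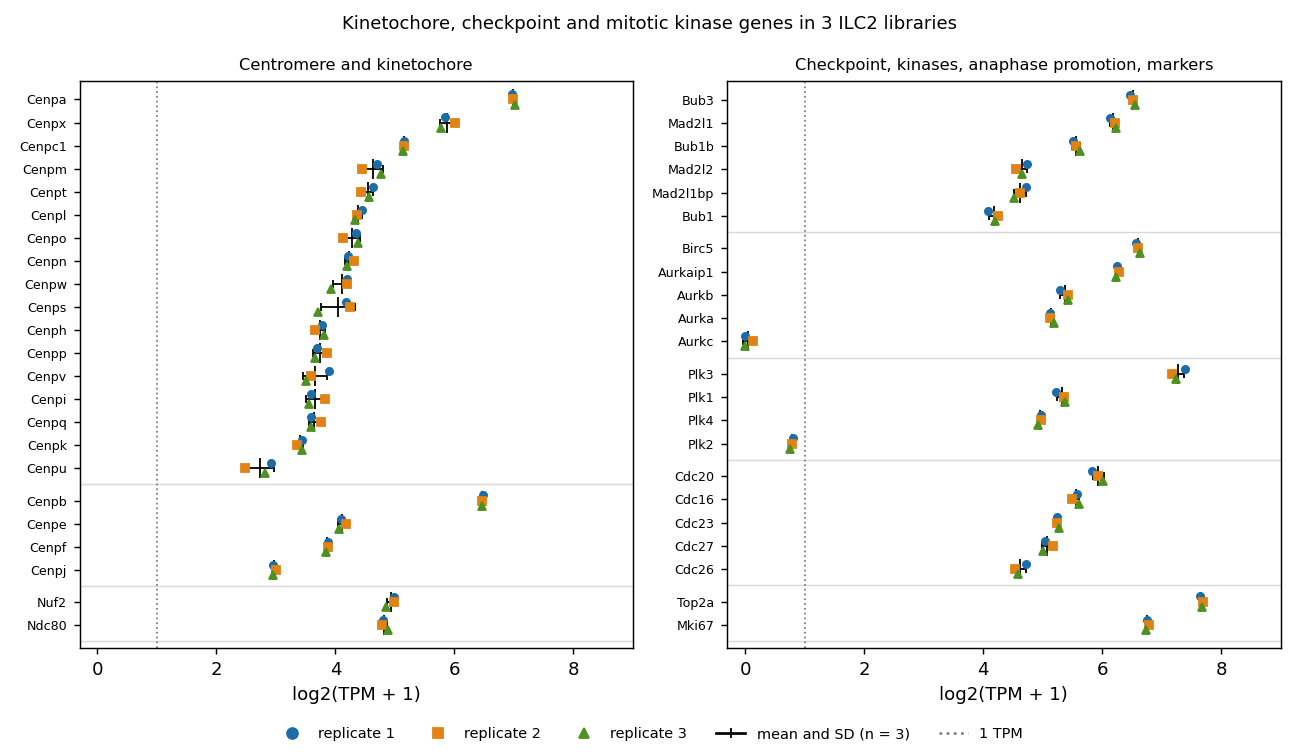
Levels as log2(TPM + 1) of centromere and kinetochore genes (left) and of checkpoint genes, mitotic kinases, anaphase-promoting complex genes, Top2a and Mki67 (right), with 1 point per library, the mean and SD as a bar and a dotted line at 1 TPM. Top2a, Plk3, Cenpa and Mki67 lie above 100 TPM, and Plk2 and Aurkc lie below 1 TPM.

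Kinesins are motors that walk along microtubules. The 34 members with a Kif symbol were split by a list into 11 best known for work in mitosis and 23 others. Most of these others carry cargo. Kifc1, a kinesin that the symbol rule does not match, had a mean of 37.5 TPM and is in neither group. Kif2a, a microtubule depolymerase that also acts at spindle poles, was listed among the 23. All 11 mitotic kinesins and 14 of the other 23 were detected, beside 67.3% of all listed genes. Kif22, which pushes chromosomes toward the cell's equator, had 60.4, 66.8 and 66.8 TPM. Kif11, which slides spindle microtubules apart, had 60.0, 61.2 and 59.6 TPM and Kif23, a part of the centralspindlin complex of cell division, 45.0, 43.8 and 44.0 TPM. The other 8 mitotic kinesins had lower means, from 6.93 to 31.2 TPM. Kif20a, which acts in cytokinesis, had 32.4, 29.8 and 31.5 TPM, Kif2c, a depolymerase at centromeres, 23.0, 24.4 and 21.9 TPM, and Kif18b 22.3, 22.0 and 22.9 TPM. Kif15 had 18.1, 19.8 and 17.9 TPM, the chromosome-bound Kif4 18.1, 18.4 and 17.1 TPM, and Kif20b 13.2, 14.2 and 13.5 TPM. Kif14, which also acts in cytokinesis, had 6.84, 8.30 and 7.97 TPM and Kif18a, which aligns chromosomes, 6.31, 7.80 and 6.69 TPM. The ranges over the libraries overlapped for Kif2c and Kif18b, for Kif15 and Kif4 and for Kif14 and Kif18a.

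Several cargo kinesins reached similar levels. Kif5b, the widely expressed conventional kinesin heavy chain, had 59.4, 62.8 and 60.4 TPM. Kif21b had 52.0, 57.4 and 55.1 TPM and Kif1c 52.1, 50.9 and 50.2 TPM. Near each other below these were Kif1bp, a kinesin-binding protein and no motor, at 36.4, 36.3 and 37.8 TPM, Kif2a at 35.0, 37.0 and 35.8 TPM and Kif13b at 34.6, 35.6 and 34.6 TPM. Kif3b, a subunit of the kinesin of cilia, had 32.0, 33.0 and 32.4 TPM, Kif1b 25.1, 25.9 and 26.0 TPM and Kif16b, which moves endosomes, 16.7, 17.3 and 18.1 TPM. Kif3c had 16.4, 16.3 and 15.5 TPM, Kif19a 13.0, 12.8 and 11.7 TPM and Kif13a 9.69, 9.55 and 9.49 TPM. The lowest detected were Kif5c, at 4.94, 5.36 and 5.16 TPM, and Kif24, at 2.77, 2.88 and 1.93 TPM, while Kif5a stood at 1.02, 0.94 and 1.12 TPM. The 8 genes below 1 TPM in all libraries were Kif1a, Kif7, Kif9, Kif21a, Kif26a, Kif26b, Kif27 and Kif28, which include neuronal motors (Kif1a, Kif21a) and a gene of hedgehog signalling in cilia (Kif7). Kif7 had 0.49, 0.48 and 0.96 TPM, Kif9 0.37, 0.63 and 0.20 TPM and Kif27 0.16, 0.23 and 0.34 TPM, and the other 5 had at most 0.13 TPM in any library. Averaged over genes within each library, the mitotic kinesins stood 1.71 ± 0.020 log2 units (SD, n = 3) above the others. The difference was 1.87 with Kif2a counted as mitotic. It came down to 0.31 when only genes at 1 TPM or more were kept. Over all genes of each group the median was 22.4 TPM for mitotic and 9.58 TPM for other kinesins, and over detected genes it was 22.4 and 29.1 TPM. Summed over the 11 and the 23 genes, the levels were 306, 316 and 309.9 TPM for the mitotic and 392, 405 and 397 TPM for the other group.

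**Figure D3:**
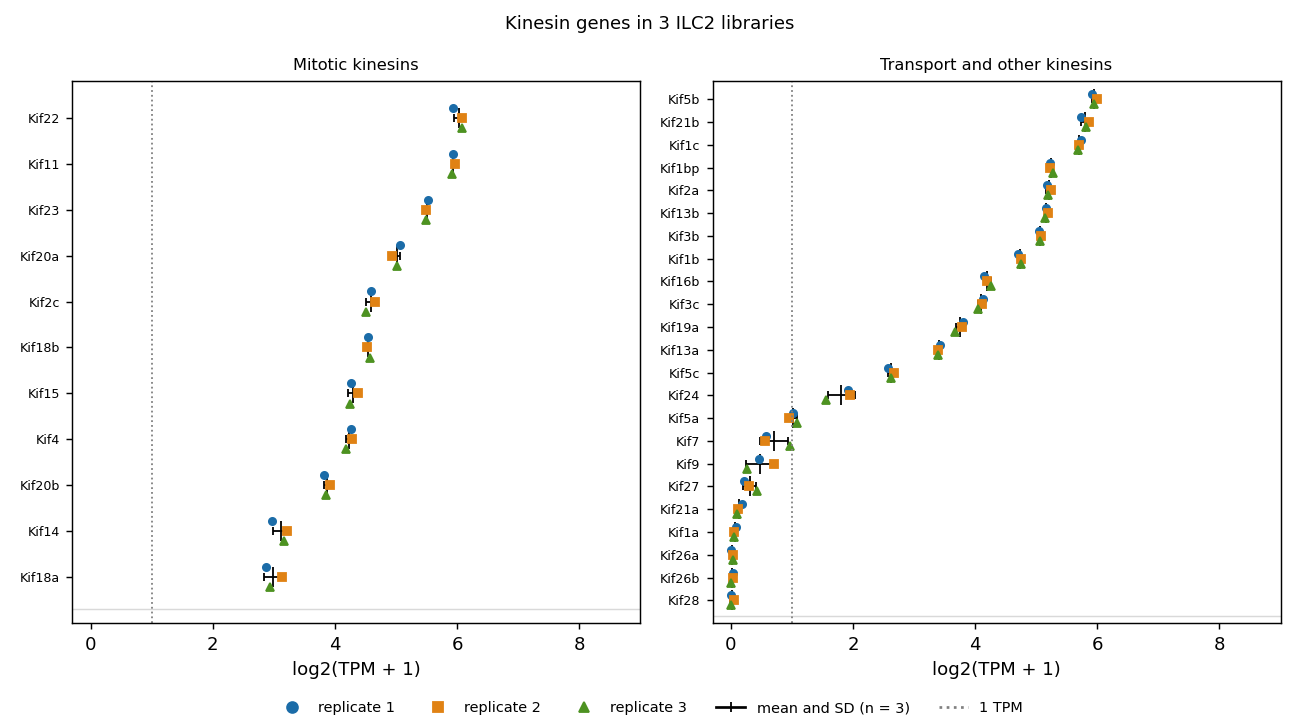
Levels as log2(TPM + 1) of 11 mitotic (left) and 23 other kinesins (right), with 1 point per library, the mean and SD as a bar and a dotted line at 1 TPM. Mean levels of the mitotic genes run from 6.93 to 64.7 TPM, and those of the others from 60.8 TPM down to 8 genes below 1 TPM.

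Genes expressed in mitosis often carry near their start the cell cycle genes homology region, TTTGAA, which the MuvB complex binds through Lin54: with Rbl2 or Rbl1 and E2f4 as the DREAM repressor in resting cells, and with Mybl2 and Foxm1 as an activator in dividing ones. It often lies downstream of CCAAT boxes bound by NF-Y. The promoters of 5 members at which these letters were found and of Kif1c, an expressed cargo kinesin without TTTGAA, are shown for comparison. They are RefSeq sequences of GRCm38.p6 from 250 bases before to 50 after the start, read 5′ to 3′ on the gene's strand, with TTTGAA and CCAAT on either strand in capitals: Ccnb2 at chr9:70421505-70421804 (minus), Cdk1 at chr10:69352863-69353162 (minus), Top2a at chr11:99024140-99024439 (minus), Kif11 at chr19:37376132-37376431 (plus), Kif22 at chr7:127042371-127042670 (minus) and Kif1c at chr11:70700298-70700597 (plus).
Ccnb2: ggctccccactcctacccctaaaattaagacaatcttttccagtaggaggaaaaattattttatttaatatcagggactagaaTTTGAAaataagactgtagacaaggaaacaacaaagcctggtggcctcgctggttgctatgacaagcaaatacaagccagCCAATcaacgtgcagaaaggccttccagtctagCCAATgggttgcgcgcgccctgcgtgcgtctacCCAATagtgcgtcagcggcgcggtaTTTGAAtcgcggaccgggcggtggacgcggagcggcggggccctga
Cdk1: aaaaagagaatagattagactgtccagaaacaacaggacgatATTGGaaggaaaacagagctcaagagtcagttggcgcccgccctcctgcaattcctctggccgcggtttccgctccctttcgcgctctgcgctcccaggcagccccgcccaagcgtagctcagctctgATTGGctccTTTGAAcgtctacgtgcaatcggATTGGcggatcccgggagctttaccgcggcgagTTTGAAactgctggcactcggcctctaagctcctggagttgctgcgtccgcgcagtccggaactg
Top2a: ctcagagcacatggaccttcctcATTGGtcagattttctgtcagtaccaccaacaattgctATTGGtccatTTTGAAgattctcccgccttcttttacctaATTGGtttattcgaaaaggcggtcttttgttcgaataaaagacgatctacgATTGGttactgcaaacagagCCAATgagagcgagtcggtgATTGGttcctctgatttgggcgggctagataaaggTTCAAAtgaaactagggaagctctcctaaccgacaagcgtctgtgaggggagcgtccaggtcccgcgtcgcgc
Kif11: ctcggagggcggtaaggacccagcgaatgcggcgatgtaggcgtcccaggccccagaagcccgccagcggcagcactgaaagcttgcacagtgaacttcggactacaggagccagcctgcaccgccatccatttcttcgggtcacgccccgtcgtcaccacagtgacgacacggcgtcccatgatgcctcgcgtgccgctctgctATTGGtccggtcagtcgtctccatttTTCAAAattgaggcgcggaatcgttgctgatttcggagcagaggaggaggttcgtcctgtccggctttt
Kif22: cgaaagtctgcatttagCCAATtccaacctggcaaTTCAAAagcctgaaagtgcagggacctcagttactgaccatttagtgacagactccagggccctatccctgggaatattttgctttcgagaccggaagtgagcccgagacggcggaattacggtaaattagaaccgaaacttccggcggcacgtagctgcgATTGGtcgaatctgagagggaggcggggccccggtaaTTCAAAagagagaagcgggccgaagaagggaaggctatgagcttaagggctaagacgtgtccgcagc
Kif1c: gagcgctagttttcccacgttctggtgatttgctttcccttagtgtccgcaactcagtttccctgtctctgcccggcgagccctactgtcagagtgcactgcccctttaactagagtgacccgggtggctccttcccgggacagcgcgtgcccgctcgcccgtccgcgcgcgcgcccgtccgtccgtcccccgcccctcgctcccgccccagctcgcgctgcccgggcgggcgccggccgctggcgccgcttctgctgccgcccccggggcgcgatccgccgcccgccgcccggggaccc

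These 5 were picked because they hold TTTGAA near the start. It began 4 bases after the start in Ccnb2, and 15, 23, 19 and 17 bases before it in Cdk1, Top2a, Kif11 and Kif22. A more distant copy began 167, 71, 179 and 215 bases before the start in Ccnb2, Cdk1, Top2a and Kif22. In other genes of mitosis the letters lay farther off, at 116 and 98 bases before the start in Mki67, 103 in Kif2c and 228 in Kif14, or were not in the window, as in Ccnb1, Birc5, Nuf2 and Kif18a. A CCAAT in either orientation began upstream of each: in Ccnb2 at 87, 54 and 21 bases before the start, in Cdk1 nearest at 48, in Top2a at 58, in Kif11 at 45 and in Kif22 at 54. In the Kif1c window neither strand held TTTGAA, which says only that these letters are not in this window.

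Promoters were matched for 119 of the 139 genes, giving 138 promoters since some genes have several starts. TTTGAA on either strand was in 40 of the 138 (29.0%), beside 17.9% of all 32851 promoters and 12.3% of those of detected listed genes. Within 50 bases of the start, a window chosen after the matches were seen, it was in 26 of the members' promoters (18.8%), beside 4.94% of all and 3.21% of those of detected genes. Of the mitotic kinesins, 9 of 10 promoters held TTTGAA, 7 of them within 50 bases of the start, with Kif18a the exception and Kif20a not matched. In other groups with mitotic genes, Bub and Mad2l genes held the letters in 3 of 8 promoters, or 2 of 6 genes. The letters were in 2 of 2 promoters of Mki67 and Top2a, 1 of 2 of B cyclins and 1 of 2 of the Ndc80 complex. Anaphase-promoting complex Cdc genes had them in 1 of 4, that of Cdc20. Polo-like kinases had them in 1 of 4, that of Plk1, with Plk2 and Plk3 among the 4. Aurora kinases and survivin had them in 1 of 3, that of Aurka, with Aurkc among the 3 and Aurkb not matched. Of 21 promoters of the other kinesins 3 held TTTGAA, those of Kif1a, Kif26b and Kif27, all below 1 TPM. In 2 of the 3 it lay within 50 bases of the start. TTTGAA was in 0 of the 12 promoters of the 10 detected other kinesins, beside 12.3% of those of detected listed genes. This set is too small to tell 0 from that share. TTCGAA, another form of the homology region, was in 1 of the 12 (8.33%). The detected Kif5b, Kif21b, Kif13b and Kif19a were not matched.

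**Figure D4:**
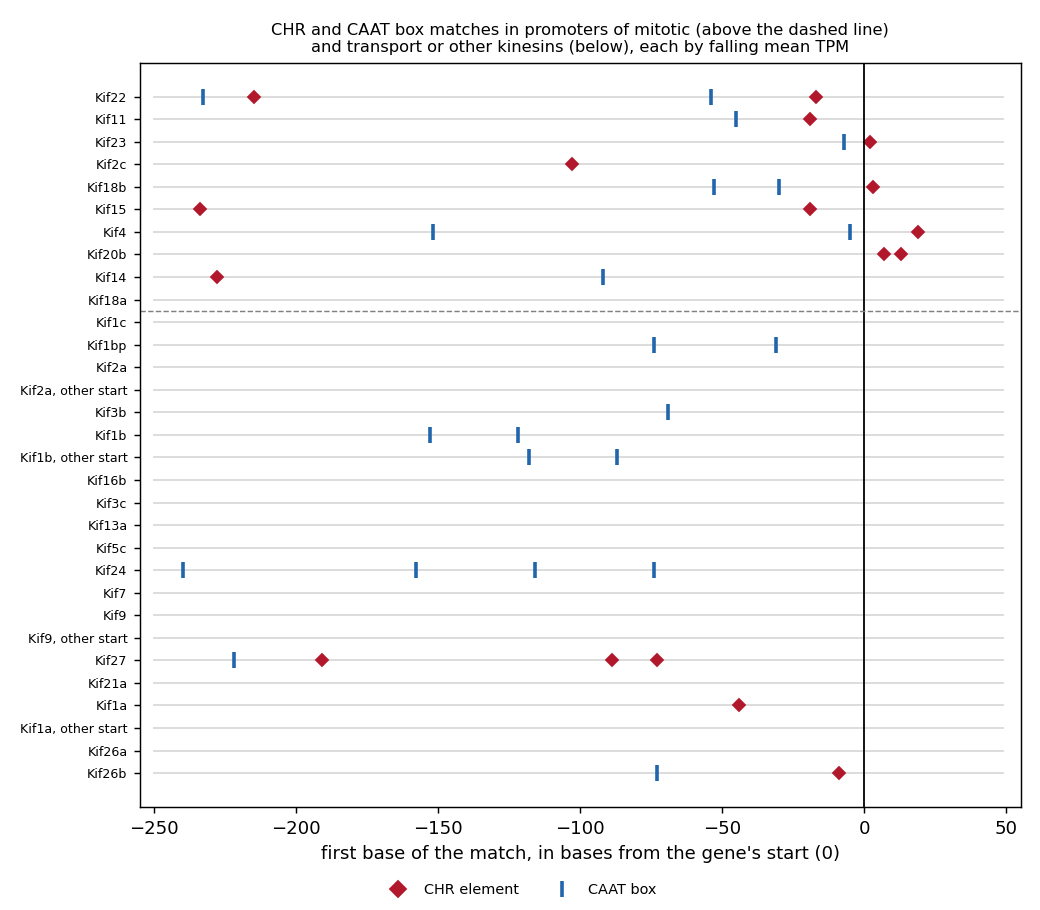
Position of TTTGAA and CCAAT, on either strand, in bases from the start in promoters of mitotic kinesins and of other kinesins, ordered by falling TPM. TTTGAA lies in 9 of 10 mitotic kinesin promoters, in 7 of them within 50 bases of the start. Of the 21 promoters of other kinesins 3 hold it, 2 of them within 50 bases. Among promoters of detected genes it is in 0 of 12 of the other kinesins, beside 12.3% over detected listed genes. This set is too small to tell 0 from that share.

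CCAAT was in 69 of the 138 promoters (50%), beside 37.4% of all promoters and 38.3% of those of detected genes. It was in 15 of 20 promoters of the constitutive centromere genes, of which 4 held TTTGAA. Any of the E2F motifs TTTGGCGC, TTTCGCGC and TTTCCCGC, on either strand, was in 11 of 138 (7.97%), those of Cdc6, Cdc25a, Cdk1, Cdk2, Cdkn2a, Cenpb, Cenpl, Cenpm, Cenps, Kif15 and Kif18a, beside 1.84% of all and 3.61% of those of detected genes. The other form of the homology region, TTCGAA, was in 4.35% of the members' promoters, 1.56% of all and 2.17% of those of detected genes. These shares describe letters in windows; they are not sites shown to be bound in these cells.

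Genes that work with the members, from a list of 83 that match no part of the symbol rule, were all detected, and 77 had 10 TPM or more (median 36.4 TPM). Of all listed genes 67.3% were detected and 51.2% had 10 TPM or more, with a median of 11.2 TPM. The 6 highest were Rbl2, the retinoblastoma relative of DREAM, at 266, 267 and 274 TPM, the cohesin subunit Rad21 at 219 ± 5.96, the ubiquitin-conjugating enzyme Ube2s of the anaphase-promoting complex at 198 ± 4.37, Rb1 at 176 ± 8.20, Anapc5 at 157 ± 6.11 and E2f4 at 147 ± 3.98 TPM (SD, n = 3). Rbl1, of the DREAM repressor, had 51.3 TPM, and the activators Foxm1 and Mybl2 had 27.0 and 22.0 TPM. The shared core subunits Lin37, Lin52, Lin54 and Lin9 had means of 41.0, 17.2, 14.8 and 11.5 TPM. None of the 83 was below 1 TPM in all libraries.

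The 3 libraries gave near equal values for most of these genes. Among the 106 members at 10 TPM or more the median coefficient of variation was 3.80%, beside 3.87% over all 8262 listed genes at that level. A chi-square test of a gene's estimated reads against the library totals, adjusted by Benjamini-Hochberg over all 12424 genes with at least 20 reads, asks whether libraries differ by more than counting. It called 11 of 130 members tested (8.46%), beside 10.9% of all genes tested, a share near that background. Without replicate 1, 2 or 3 the count was 4, 5 and 6 (3.13%, 3.97% and 4.69% of members tested), beside 4.13%, 7.14% and 7.85% of all genes tested. Counted among detected genes alone it was 10 of 120 (8.33%), beside 12.0%. Reads from the same PCR are not independent molecules, and the test compares libraries and no condition. Of the 120 detected members 28 (23.3%) were highest in replicate 1, 48 (40.0%) in replicate 2 and 44 (36.7%) in replicate 3, beside 27.1%, 32.9% and 40.0% of all detected genes. Lowest in replicate 1, 2 and 3 were 54 (45.0%), 29 (24.2%) and 37 (30.8%), beside 44.3%, 30.9% and 24.9%.

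The called members differed in direction. In the chi-square test Plk3 was highest in replicate 1 at 167 TPM (adjusted p = 2.03e-09), and Cdc37 was lowest in replicate 2 at 332 TPM (adjusted p = 4.91e-09). Cdk6 and Ccnd2 were both lowest in replicate 1, with adjusted p of 2.37e-08 and 7.41e-07. The other 7 were Cdc27, Cdc34, Cdkn1b, Cenps, Kif7, Kif21b and Mki67. Mki67 passed the chi-square test (adjusted p = 0.0256) on levels of 106 to 110.0 TPM. Among the members at 10 TPM or more the largest ranges between libraries, on the log2(TPM + 1) scale, were 0.53 for Cenps, 0.38 for Cenpv, 0.33 for Cdkn3, 0.32 for Cenpm, 0.27 for Cenpi, 0.26 for Cenpw and Cenpo and 0.25 for Ccne1. Cenps, on 145, 150 and 101 reads, passed the chi-square test (adjusted p = 0.0372).

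A level per length depends on the transcript assigned to a gene, and this was measured for 119 members with a mean of at least 50 reads. The length behind their TPM was a median of 0.931 times the longest GENCODE transcript, beside 0.942 over 10246 listed genes. It was under 0.5 times for 9 members (7.56%, beside 7.93%) and over 1.5 times for 2 members, Cdk7 and Cenpq (1.68%, beside 2.05%). For Cenpq it was 3661 bases against 1942. Ccnd2 and Ccnd3, at 5893 and 1932 bases, are another pair whose spacing moved with the length used: Ccnd2 was above Ccnd3 by 1.84 log2 units per coding length and 1.10 on the longest transcript.

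**Figure D5:**
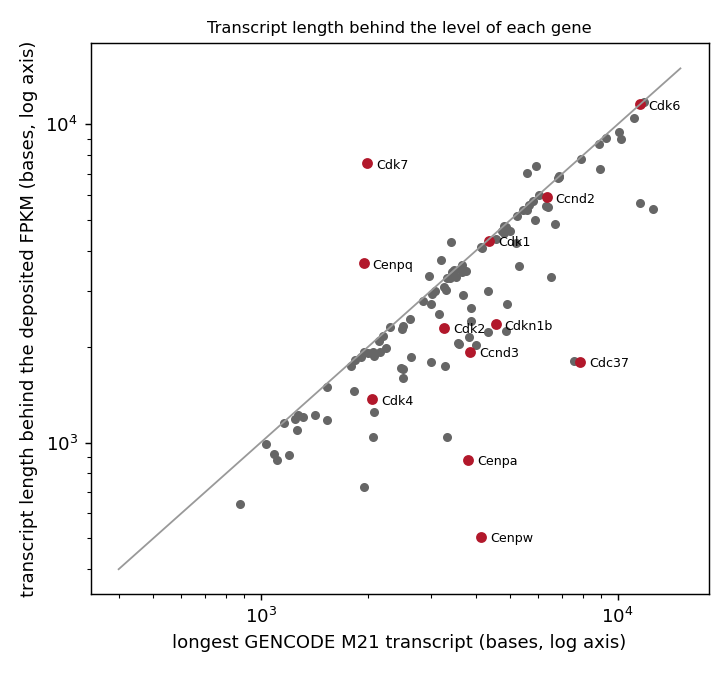
Length behind TPM against the longest GENCODE transcript, both in bases on log axes, with 1 point per member with a mean of at least 50 reads and a line where both are equal. Cdk6 lies near the line at 11567 bases, Cdk7 and Cenpq lie above it, and Cenpa lies below it.

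Members also lie beside each other in the genome. In RefSeq (GRCm38.p6) the spans of Cenph and Ccnb1 lie 2835 bases apart on chromosome 13, and those of Cdk7 and Cenph 28731 bases apart. On chromosome 2 Cenpb lies 6368 bases from Cdc25b, and on chromosome 11 Cdc6 lies 69004 bases from Top2a. Mean levels were 8.28 TPM for Cdk7, 12.4 TPM for Cenph and 42.8 TPM for Ccnb1. They were 87.5 TPM for Cenpb and 70.2 TPM for Cdc25b, and 18.0 TPM for Cdc6 and 203 TPM for Top2a. The RefSeq spans of 39 members overlap another listed gene, 18 of them by more than 2 kb, and reads in such overlaps may not be told apart.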

How the data were processed

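Fragmented mRNA of 3 libraries of 1 group was sequenced, per the labels' protocols. Per the submitters' processing notes Bowtie2, RSEM 1.3.1 and GRCm38.p6 were used; the sources used here give no annotation or strand setting. Per the file headers the authors deposited TPM, FPKM and expected counts per gene, and a normalized signal column that was not used. Levels, means and SDs were computed here from TPM on all 16129 listed genes, with a pseudocount of 1 on the log2 scale and no filter. Expected counts were rounded for the chi-square test. It was also run on simulated counts with counting spread alone, where it called 0.091% of unchanged genes. That cannot show how it behaves where libraries differ by more than counting. TMM factors came from edgeR 4.0.16, and scipy 1.17.1 gave the tests. Lengths came from GENCODE M21, promoters from RefSeq (GRCm38.p6), with 119 members matched.

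Members and lists were chosen with earlier results of these data known. Values in every library are given for the genes of the 8 contrasts, except 5 kinesins near 0 given by their maximum, and for the 3 highest of each role group; members below 1 TPM and the 8 of largest range at 10 TPM or more are named. Other pseudocounts, filters, scalings and left-out libraries were tried as alternatives; those on transcript length, those on Kif1bp and Kif2a, and the 50-base promoter window were added after seeing the data.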

Additional observations from a re-analysis of the deposited data

How the results depend on the processing

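No paired analysis was possible because the study has 1 group, so replicate numbers pair no samples across groups; the 8 contrasts compared genes within each library. The count of members detected was 122 at 0.5 TPM, 113 at 5 TPM, 117 at 1 FPKM and 120 to 121 when a library was left out. The median level of 4.66 became 4.61 with a pseudocount of 0.1, 3.66 on FPKM, 5.06 with genes at 1 TPM or more alone, and 4.66 to 4.70 without a library. The count of members differing between libraries stayed at 11 with TMM factors, with median-of-ratios factors and at minimums of 5 and 100 reads, and was 4 to 6 without a library, where fewer libraries are compared and 495, 854 and 940 of all genes tested were called (4.13%, 7.14% and 7.85%) without replicate 1, 2 and 3. On coding length, an alternative chosen after seeing the data, Cdk4 minus Cdk6 reversed to -0.18, and the other contrasts were 1.84 for Ccnd2 minus Ccnd3, 0.34 for Ccnb2 minus Ccnb1, -0.69 for Ccne1 minus Ccne2, -0.34 for Cdk1 minus Cdk2, 1.25 for Cdkn1b minus Cdkn1a, 0.54 for Aurkb minus Aurka and 1.19 for kinesins. On the longest GENCODE transcript, also added later, they were 1.10 for Ccnd2 minus Ccnd3, 2.13 for Cdk4 minus Cdk6, -0.92 for Cdk1 minus Cdk2, 0.42 for Cdkn1b minus Cdkn1a and 1.24 for kinesins. The kinesin difference was 2.58 with a pseudocount of 0.1, 1.37 on FPKM, 0.31 with genes at 1 TPM or more and, added later, 1.82 without Kif1bp and 1.87 with Kif2a counted as mitotic. Genes below 1 TPM rest on few reads, and their levels are not precise at this depth.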
